A study of Mus musculus with 16 samples.

Results

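The 9 genes of the interferon response and of antigen processing described here were followed in mouse embryonic stem (ES) cells that had lost Rybp: Xaf1, Psmb8, Psmb9, Tap1, Ddx58, Ifih1, Ifit3, Irf7 and Isg15. They are 9 of 18193 named genes, carried by 16 of 45101 probe sets, the groups of short probes that each read out a transcript on the array. The members were chosen by gene name with the measured log2 differences between KO and control cells of both days already known, so those differences are described below without a p-value. The question was whether they moved as a single programme by clone, day and treatment.

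The 16 arrays came from ES cell clones 10 and 15, of a 129/B6 hybrid background, each line being a single clone. Rybp is a subunit of variant Polycomb repressive complex 1, which keeps developmental genes silent. KO cells (labelled Rybp-KO) had received 800 nM 4-hydroxytamoxifen (OHT) for 24 hours and were taken at day 4 or day 12. Control cells (labelled wild-type control) were untreated cells of the same clones, taken at the same days. Each of the 4 groups (KO day 4, control day 4, KO day 12, control day 12) held 4 arrays, 2 of each clone, numbered replicate 1 and replicate 2. The labels do not name the recombinase, its promoter or the engineered allele. No control received OHT, so an effect of OHT cannot be told apart from Rybp loss. The labels also do not say that replicates were separate cultures, so a p-value here reflects only how far these arrays scatter, part of which may be technical. In bulk RNA, fewer cells of a type and less RNA per cell cannot be told apart.

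As background, cells sense viral RNA in the cytosol through Ddx58 (RIG-I) and Ifih1 (MDA5), which signal through the adaptor Mavs to induce type I interferons. Interferon then acts through its receptor and downstream transcription factors on genes that carry an interferon-stimulated response element (ISRE) in their promoters. Ifit3 and Isg15 are among them. Psmb8 and Psmb9 replace standard catalytic subunits in the immunoproteasome, whose peptides the Tap1-Tap2 transporter carries into the endoplasmic reticulum for loading on MHC class I. ES cells are known for a weak interferon response.

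Promoter stretches of Isg15, Ifit3, Xaf1, Psmb9 and Tap1 are shown first, because they differ in matches to the ISRE core and because Psmb9 and Tap1 share theirs. Sequences are from RefSeq, mouse assembly GRCm38.p6, in lower case 5′ to 3′. Capitals mark the ISRE core, searched as GAAANNGAAA and, for the other strand, TTTCNNTTTC. Isg15 (chr4:156200819-156201068, minus strand) and Ifit3 (chr19:34583279-34583528, plus strand) are shown over the 250 bases before their start, as is Xaf1 (chr11:72301379-72301628, plus strand), and the stretch between the opposite starts of Psmb9 and Tap1 (chr17:34187331-34187555) is written on the plus strand, the strand of Tap1.
Isg15: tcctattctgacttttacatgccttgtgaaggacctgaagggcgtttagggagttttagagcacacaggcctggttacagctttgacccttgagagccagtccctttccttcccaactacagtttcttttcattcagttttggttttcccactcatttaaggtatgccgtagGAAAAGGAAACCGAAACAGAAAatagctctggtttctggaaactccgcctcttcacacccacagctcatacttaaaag
Ifit3: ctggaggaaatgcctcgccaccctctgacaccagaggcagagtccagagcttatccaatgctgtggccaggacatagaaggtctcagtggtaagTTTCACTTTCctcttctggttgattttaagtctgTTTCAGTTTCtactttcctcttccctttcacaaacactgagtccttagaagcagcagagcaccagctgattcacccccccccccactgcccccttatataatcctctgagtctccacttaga
Xaf1: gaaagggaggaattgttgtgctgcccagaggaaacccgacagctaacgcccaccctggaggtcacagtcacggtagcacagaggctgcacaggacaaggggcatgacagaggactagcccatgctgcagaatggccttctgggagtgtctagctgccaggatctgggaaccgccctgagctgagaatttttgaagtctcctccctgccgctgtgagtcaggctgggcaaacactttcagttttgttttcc
Psmb9 and Tap1: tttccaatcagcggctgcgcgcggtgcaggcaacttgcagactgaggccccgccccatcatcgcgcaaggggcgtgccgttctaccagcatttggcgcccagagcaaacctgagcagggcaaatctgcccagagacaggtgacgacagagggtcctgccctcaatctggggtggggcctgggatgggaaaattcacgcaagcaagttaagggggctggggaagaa

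Promoter windows of 300 bases, 250 before and 50 after the start, were matched for all 9 members. The Isg15 window held 3 overlapping ISRE cores, beginning at -78, -72 and -66 where the start is 0, and the Ifit3 window held 2, at -156 and -122. Ddx58 held TTTCGATTTC at 2 and Ifih1 held GAAACAGAAA at 32, both just after the start. No match was found in the windows of Xaf1, Psmb8, Psmb9, Tap1 and Irf7, which says only that these letters are not there. The core was present in 3.44% of the 32851 mouse windows. A gamma-activated site (TTCNNNGAA) was found in Psmb8 alone among the members, at -97, against 8.3% of all windows. The Psmb9 and Tap1 windows overlap by 275 of 300 bases.

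Xaf1 and Psmb9 were higher in KO cells in every clone and at both days, Ddx58 was lower at day 12, Ifit3 was dim and lower at day 12, and the other 5 members had overlapping KO and control arrays at both days. Neither Xaf1 nor Psmb9 held an ISRE core in its promoter window, which does not say whether interferon acts on them. The plot of all 16 arrays gives every value of the probe set that stands for each gene, the brightest on average.

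**Figure D1:**
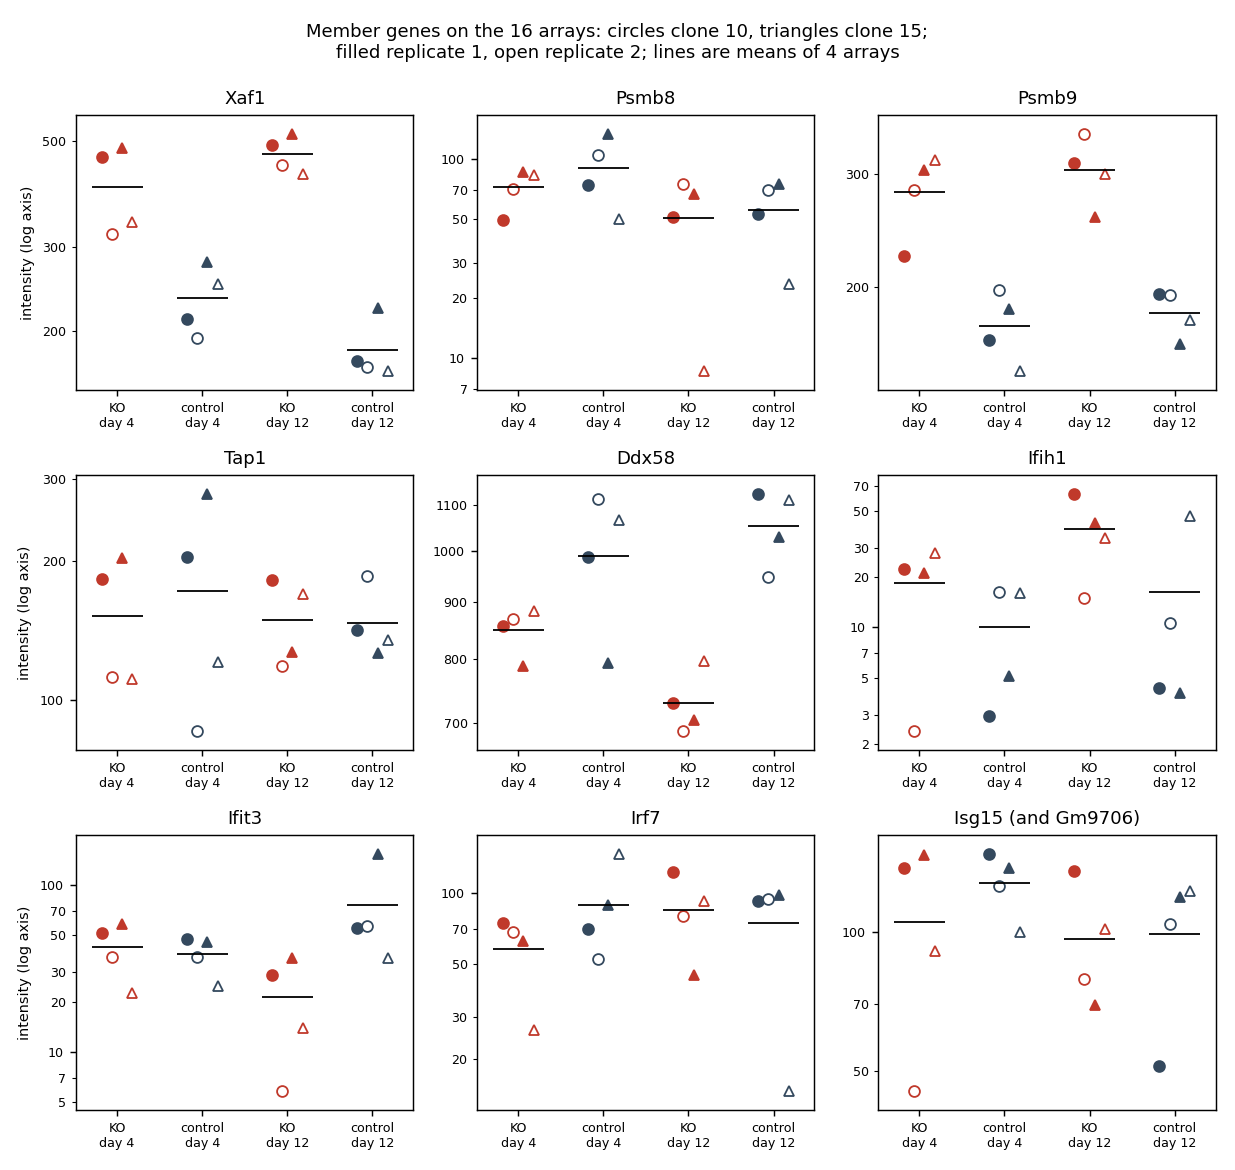
Intensity (log axis) of the 9 members on each of the 16 arrays, with KO left of control at each day, circles for clone 10, triangles for clone 15, filled symbols for replicate 1, open symbols for replicate 2 and lines for group means. Xaf1 KO arrays sit between 319 and 518 with all control arrays at or below 279, whereas Tap1, Psmb8, Irf7 and Isg15 show KO and control arrays intermingled.

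Xaf1, a binding partner of the apoptosis inhibitor XIAP that interferon induces in human cells, was read by probe set 1443621_at. At day 4 its intensity was 464 and 319 in KO cells of clone 10 and 485 and 338 in KO cells of clone 15 (replicates 1 and 2), against 213 and 194 in control cells of clone 10 and 279 and 252 in control cells of clone 15. At day 12 it was 490 and 447 in KO cells of clone 10 and 518 and 428 in KO cells of clone 15, against 174 and 168 in control cells of clone 10 and 224 and 165 in control cells of clone 15. All 4 KO arrays lay above all 4 control arrays at each day.

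The group means of Xaf1 were 402 ± 85.0 in KO and 234 ± 38.3 in control cells at day 4, and 471 ± 41.0 in KO and 183 ± 27.5 in control cells at day 12 (SD, n = 4 arrays each). The log2 fold change, KO against control, was 0.77 ± 0.16 (SE; 1.70-fold) at day 4 and 1.37 ± 0.16 (2.59-fold) at day 12, 0.61 ± 0.23 larger at the later day. Within clones the log2 difference at day 12 was 1.29 in clone 15 and 1.45 in clone 10. A dim second probe set, 1443698_at, between 10.1 and 132 on the 16 arrays, gave -0.50 ± 0.76 at day 4 and 0.20 ± 0.76 at day 12. With the mean of both probe sets in place of the brighter, the log2 fold change of Xaf1 was 0.14 at day 4 and 0.78 at day 12.

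Psmb9, the immunoproteasome subunit also called LMP2, was read by 1450696_at. At day 4 its intensity was 223 and 284 in KO cells of clone 10 and 305 and 315 in KO cells of clone 15, against 165 and 198 in control cells of clone 10 and 185 and 148 in control cells of clone 15. At day 12 it was 313 and 347 in KO cells of clone 10 and 257 and 301 in KO cells of clone 15, against 195 and 194 in control cells of clone 10 and 163 and 177 in control cells of clone 15. The groups did not overlap at either day.

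The log2 fold change of Psmb9, KO against control, was 0.69 ± 0.14 (1.62-fold) at day 4 and 0.74 ± 0.14 (1.67-fold) at day 12, a difference between the days of 0.04 ± 0.20. Its mean intensity at day 12 was 304 ± 37.2 in KO and 182 ± 15.4 in control cells (SD, n = 4 arrays each). The fold changes of Psmb9 at the 2 days were thus nearly equal.

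Ddx58, the RNA sensor RIG-I, was the brightest read-out among the members, although levels of different probe sets are not comparable. At day 4 probe set 1436562_at gave 856 and 869 in KO cells of clone 10 and 788 and 883 in KO cells of clone 15, against 988 and 1115 in control cells of clone 10 and 793 and 1066 in control cells of clone 15. At day 12 it gave 729 and 689 in KO cells of clone 10 and 704 and 796 in KO cells of clone 15, against 1126 and 947 in control cells of clone 10 and 1030 and 1111 in control cells of clone 15. The groups overlapped at day 4, and all KO arrays were below all control arrays at day 12.

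The log2 fold change of Ddx58 was -0.21 ± 0.12 at day 4 and -0.53 ± 0.12 at day 12, which is 1.44-fold lower in KO cells. A second probe set of Ddx58, 1456890_at, gave 108, 103, 127 and 136 in KO cells at day 12, against 177, 185, 179 and 201 in control cells, without overlap. Its log2 fold change was -0.47 ± 0.19 at day 4 and -0.65 ± 0.19 at day 12. The third, 1446457_at, was dim and gave -0.71 ± 0.47 and -0.42 ± 0.47. All 3 probe sets of Ddx58 therefore had negative log2 fold changes at both days.

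Ifit3, an interferon-induced tetratricopeptide protein that inhibits viral replication, was dim. On 4 of 16 arrays it was below the 25th percentile of intensity, 28.3 on every array. At day 12 it was 29.0 and 5.85 in KO cells of clone 10 and 36.4 and 13.8 in KO cells of clone 15, against 55.1 and 56.6 in control cells of clone 10 and 152 and 36.6 in control cells of clone 15. The highest KO array (36.4) and the lowest control array (36.6) were almost equal. The log2 fold change was -1.92 ± 0.57 at day 12 and 0.08 ± 0.57 at day 4. With every value under the 25th percentile raised to it, the day 12 value was -1.09.

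Ifih1, the RNA sensor MDA5, was below that percentile on 12 of 16 arrays and spanned 2.40 to 62.9. Its log2 fold change was 0.75 ± 0.90 at day 4 and 1.83 ± 0.90 at day 12, and the day 12 value was 0.33 with low values raised. Single pairs of KO and control arrays of Ifih1 ranged from -2.76 to 2.93 at day 4 and from -0.43 to 3.86 at day 12. The direction of Ifih1 cannot be read at this signal.

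Irf7, the factor that amplifies type I interferon production, spanned 14.7 to 145 and differed by -0.62 ± 0.58 at day 4 and 0.42 ± 0.58 at day 12 (log2, KO against control). Isg15, a ubiquitin-like protein attached to other proteins after interferon, was read by a probe set that also carries the symbol Gm9706. It spanned 45.2 to 148, with log2 fold changes of -0.40 ± 0.38 at day 4 and -0.01 ± 0.38 at day 12. Both genes had 3 or fewer of 4 pairs in any direction at either day.

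Tap1, a subunit of the peptide transporter, averaged 152 ± 47.7 in KO and 173 ± 86.6 in control cells at day 4, and 149 ± 31.2 in KO and 147 ± 26.6 in control cells at day 12 (SD, n = 4 arrays each). Its log2 fold change was -0.09 ± 0.34 at day 4 and 0.01 ± 0.34 at day 12. Its other 3 probe sets were dim, none above 48.0 on any array. They gave log2 fold changes of -0.07 to 0.90 at day 4 and -1.59 to -0.14 at day 12. Psmb8, the immunoproteasome subunit LMP7, gave -0.26 ± 0.61 and -0.39 ± 0.61, and 1 KO array at day 12 (clone 15, replicate 2) was at 8.64. A second Psmb8 probe set, 1444619_x_at, was below the 25th percentile on 14 of 16 arrays. It gave -1.26 ± 0.93 at day 4, lower in 4 of 4 pairs, and 0.28 ± 0.93 at day 12. Psmb9, Tap1, Psmb8 and Tap2 follow each other on chromosome 17. KO and control arrays lay apart for Psmb9 and overlapped for Tap1 and Psmb8, and Tap2, the partner of Tap1, gave -0.18 ± 0.48 at day 4 and -0.51 ± 0.48 at day 12 (log2, limma adjusted p = 0.99 and 0.71).

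**Figure D2:**
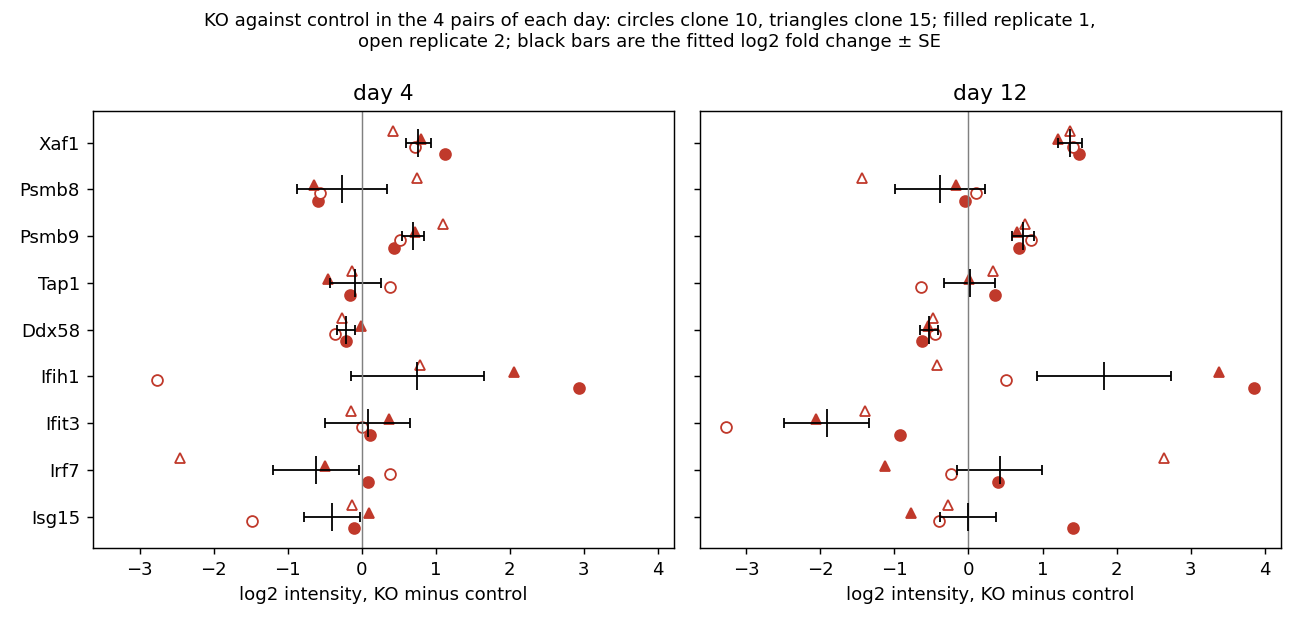
Log2 intensity, KO minus control, in the 4 pairs of same clone, day and replicate number at day 4 (left) and day 12 (right), with circles for clone 10, triangles for clone 15, open symbols for replicate 2 and black bars for the fitted log2 fold change ± SE. At day 12 all pairs of Xaf1 (1.21 to 1.50) and Psmb9 (0.66 to 0.84) lie above 0, all pairs of Ddx58 (-0.63 to -0.46) and Ifit3 (-3.28 to -0.93) lie below 0, and the other 5 members have pairs on both sides.

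Past an adjusted p of 0.05 in the fit over all 18196 entries (limma, Benjamini-Hochberg), KO against control at day 4 had 0 members higher, beside 0.566% of all entries, and 0 lower, beside 0.0605%. At day 12 it had 2 members higher (Xaf1 and Psmb9, beside 2.18% of entries) and 1 lower (Ddx58, beside 0.901%). KO and control arrays did not overlap for 2 members at day 4, beside 5.5% of entries, and for 4 members at day 12, beside 12.1%. Since the members were chosen with this contrast known, nothing is read from these counts. The median log2 fold change of the 9 members was -0.09 at day 4 and 0.01 at day 12, and that of all entries was 0.01 at both days. With any 1 of 3 arrays left out (KO day 12 clone 10 replicate 1, KO day 12 clone 10 replicate 2 or control day 12 clone 15 replicate 1), the member called at day 12 was Xaf1 alone. The Ddx58 call was also lost without KO day 12 clone 15 replicate 1, control day 12 clone 10 replicate 1 or control day 12 clone 15 replicate 2.

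Comparisons that did not enter the choice of members were then tested. Those between the days use the same arrays as the KO differences, so they are not independent of that choice. Between clone 15 and clone 10 in control cells, 0 of 9 members passed (limma adjusted p over all entries), beside 0.0659% of entries, with log2 differences of 0.28 ± 0.18 for Xaf1, -0.16 ± 0.14 for Psmb9 and -0.07 ± 0.13 for Ddx58. The KO difference in clone 15 minus that in clone 10 also passed for 0 members, beside 0% of entries, at -0.24 ± 0.25 for Xaf1, 0.19 ± 0.19 for Psmb9 and 0.09 ± 0.19 for Ddx58. A difference between the clones of the size of these standard errors could not be detected.

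From day 4 to day 12, 0 members passed in KO cells, beside 3.27% of entries, and 0 in control cells, beside 0.995%. In KO cells the log2 difference, day 12 against day 4, was 0.25 ± 0.16 for Xaf1 (limma adjusted p = 0.52), 0.12 ± 0.14 for Psmb9 (0.78) and -0.22 ± 0.12 for Ddx58 (0.42). In control cells the same difference was -0.36 ± 0.16 for Xaf1 (limma adjusted p = 0.36), 0.07 ± 0.14 for Psmb9 (0.88) and 0.10 ± 0.12 for Ddx58 (0.79). The larger KO difference of Xaf1 at day 12 therefore combined a positive value in KO cells with a negative value in control cells, neither past the threshold.

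The replicate numbers marked a wide difference at day 4. Replicate 2 differed from replicate 1 in 26.7% of entries at day 4 and 3.62% at day 12. With 1 probe set a gene, Tap1 was the member that passed at day 4. It had 112 and 111 in KO and 85.9 and 121 in control cells of replicate 2 (clones 10 and 15). Replicate 1 had 183 and 203 in KO and 204 and 279 in control cells. The log2 difference of Tap1 was -1.01 ± 0.19 (limma adjusted p = 0.0075), lower in 4 of 4 pairs at day 4. At day 12 it was 0.07 ± 0.19 and 0 members passed. Xaf1 was lower in replicate 2 in all 8 pairs (-0.34 ± 0.11 at day 4, limma adjusted p = 0.057, and -0.22 ± 0.11 at day 12, 0.29). Isg15 and Ifit3 were lower in replicate 2 in 4 of 4 pairs at day 4, at -0.75 ± 0.32 (limma adjusted p = 0.14) and -0.77 ± 0.38 (0.19). The fibroblast marker sum, over 12 markers of feeder cells, was 2523 to 3235 in replicate 2 and 3241 to 4376 in replicate 1 at day 4, and its part in these differences was not tested.

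**Figure D3:**
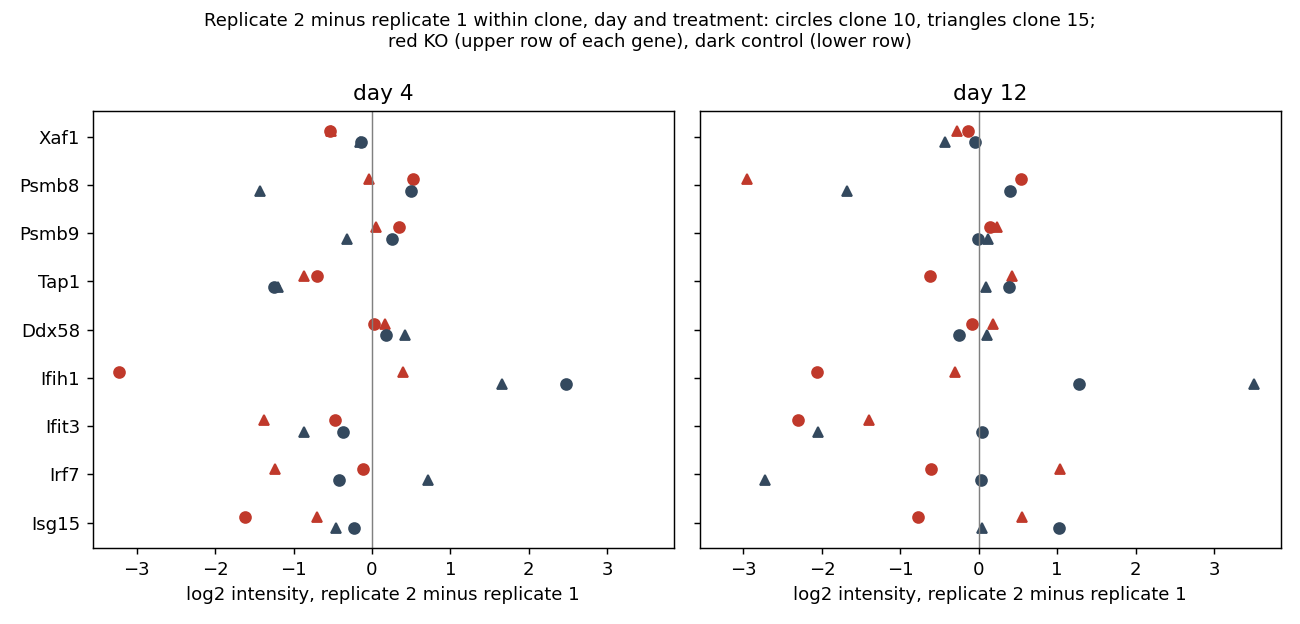
Log2 intensity, replicate 2 minus replicate 1, within clone, day and treatment at day 4 (left) and day 12 (right), with circles for clone 10, triangles for clone 15, red for KO and dark for control cells. Tap1 lies between -1.25 and -0.70 at day 4 and between -0.62 and 0.42 at day 12, while Xaf1 lies at or below -0.05 throughout.

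The KO difference was also taken within each replicate number. For Xaf1 the mean log2 difference, KO minus control, at day 4 was 0.57 in replicate 2 and 0.96 in replicate 1, and at day 12 it was 1.39 in replicate 2 and 1.35 in replicate 1. For Psmb9 it was 0.81 in replicate 2 and 0.58 in replicate 1 at day 4, and 0.80 in replicate 2 and 0.67 in replicate 1 at day 12. For Ddx58 at day 12 it was -0.47 in replicate 2 and -0.59 in replicate 1. Isg15 at day 12 had -0.33 in replicate 2 and 0.32 in replicate 1, and Irf7 had 1.20 in replicate 2 and -0.36 in replicate 1.

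Whether members moved together was asked over 8 differences, in all 36 member pairs. Pairs whose differences fell into separate clusters by day, clone or treatment were given no correlation, which left 15 pairs in each family. For KO minus control this left out every pair with Xaf1, Ddx58 or Ifit3, Xaf1 with Psmb9 among them. The correlations of that family therefore say nothing on whether Xaf1, Ddx58 and Ifit3 moved with other members. For replicate 2 minus replicate 1 it left out every pair with Psmb8, Tap1 or Ifih1. For KO minus control, r was positive in 8 pairs and negative in 7, with a median of 0.01 and a range of -0.87 to 0.69. Since these differences entered the choice of members, the correlations are a description with no test. The most negative was Psmb8 with Irf7 (r = -0.87), which had r = -0.12 without the 2 differences farthest from the median of Psmb8, so it rests on those.

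For replicate 2 minus replicate 1, a measure the choice of members did not use, r was positive in 7 pairs and negative in 8, with a median of -0.04 and a range of -0.38 to 0.55. The smallest adjusted exact permutation p over the 15 pairs was 0.82, and 0 had an unadjusted p under 0.05. Xaf1 and Psmb9 had r = -0.37 (rho = -0.29), with an exact permutation p of 0.39 for r and 0.50 for rho (n = 8 differences, adjusted 0.82 and 0.97), and r = -0.26 without the 2 farthest. With 8 differences a modest correlation could not be detected.

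Likeness of pattern over all 16 arrays was described by Pearson correlation of log2 intensity among genes at or above the median level. Fellow members were given a rank whatever their level, Ifit3 being below the median intensity on 15 of 16 arrays. These arrays include the KO differences known when the members were chosen. Since all genes share these arrays, no p is given. No member had a fellow member among its 100 nearest genes. The 3 nearest to Xaf1 were Dazl (r = 0.97) and Piwil2 (0.97), both germ cell genes, and the keratin Krt10 (0.97), and Psmb9 was at rank 319. The nearest to Psmb9 were Nelfa (0.96), Pdlim3 (0.96) and Arhgef26 (0.92), with Xaf1 at rank 204. The nearest to Ddx58 were Cbr3 (0.92), Chd9 (0.88) and Slc7a3 (0.88), with Ifit3 as its best-placed fellow member at rank 1133.

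The rest of the pathway was read from lists of 111 symbols of sensors, interferon signalling, induced effectors and class I antigen processing. Of these, 102 were measured as genes of their own. The lists, too, were chosen with earlier results of these data known, so their counts and p-values are given as a description. In KO against control, 0 of 102 passed at day 4. At day 12, 2 were higher and 1 was lower, which is 2.94% of the 102 beside 2.18% and 0.901% of all entries for higher and lower. The list median of the log2 fold change was -0.04 at day 4 and 0.06 at day 12, and all entries had 0.01 at both days. Among the 18 sensors and adaptors and among the 16 antigen processing genes, 0 passed at either day, and of the 14 subunits of the standard proteasome 0 passed, with medians of 0.02 at day 4 and 0.10 at day 12. These counts depend on the fit. With same-numbered KO and control arrays treated as paired, 1 of the 102 passed at day 4 and 11 at day 12. Cgas, Myd88 and H2-D1 were among the 11, and Psmb2 of the standard proteasome also passed at day 12.

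Without that pairing, Socs1 and Irf8 were the genes called higher at day 12, both of the 20 interferon and signalling genes. Socs1, a suppressor of cytokine signalling that interferon induces, had 165, 112, 97.1 and 169 in KO cells, against 31.8, 46.5, 39.9 and 72.5 in control cells, or 1.54 ± 0.32 on the log2 scale (limma adjusted p = 0.020). Its call was lost without KO day 12 clone 10 replicate 1, KO day 12 clone 15 replicate 2, control day 12 clone 10 replicate 1, control day 12 clone 10 replicate 2 or control day 12 clone 15 replicate 1, with adjusted p up to 0.072. Irf8, a transcription factor of myeloid cells and of the interferon response, had 150, 177, 133 and 161 in KO cells, against 57.7, 89.3, 59.1 and 86.8 in control cells, or 1.11 ± 0.26 on the log2 scale (limma adjusted p = 0.035). Its call was lost without any 1 array of day 12 other than control day 12 clone 10 replicate 2, with adjusted p up to 0.10. In the fit over every probe set Irf8 did not pass (limma adjusted p = 0.056), nor did its other probe set (0.49).

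Tor3a, an interferon-induced ATPase of the endoplasmic reticulum, was the effector called lower among 48 without that pairing. It had 289, 289, 325 and 332 in KO cells at day 12, against 476, 505, 543 and 561 in control cells, or -0.76 ± 0.13 on the log2 scale (limma adjusted p = 0.0090). Its call held without any of the 16 arrays. In the fit over every probe set it passed again (limma adjusted p = 0.020). The other Tor3a probe sets were negative but did not pass (0.17 and 0.57). In all 3 genes KO and control arrays of day 12 lay apart, and within replicate 2 and replicate 1 the mean log2 differences were 1.25 and 1.83 for Socs1, 0.94 and 1.28 for Irf8, and -0.78 and -0.73 for Tor3a.

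**Figure D4:**
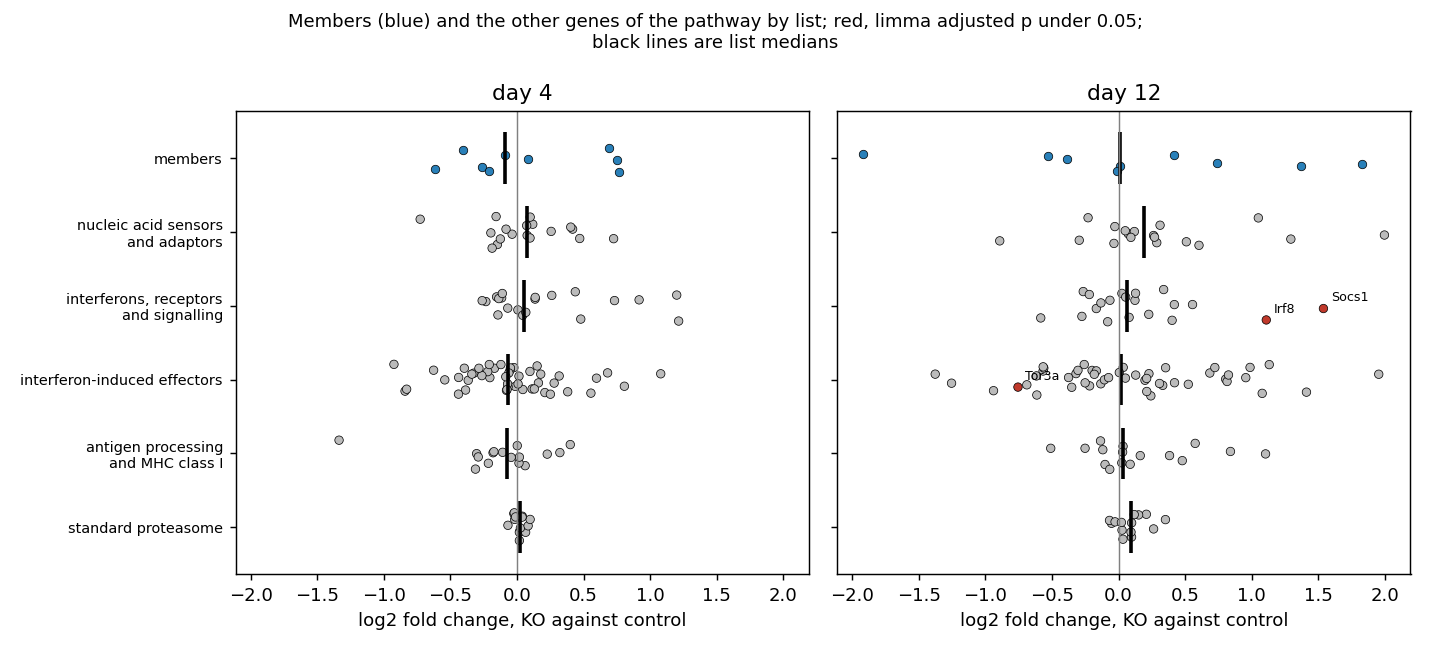
Log2 fold change, KO against control, of each gene at day 4 (left) and day 12 (right), by list, with members in blue, genes past a limma adjusted p of 0.05 in red and list medians as black lines. Each list spreads to both sides of 0, and at day 12 the red genes are Irf8 (1.11), Socs1 (1.54) and Tor3a (-0.76).

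The central genes named whatever their values did not pass in KO against control. At day 12 the log2 fold changes were -0.58 ± 0.29 for Ifnb1 (interferon beta), 0.26 ± 0.14 for Mavs, 0.27 ± 0.18 for Irf3, 0.05 ± 0.19 for Irf9, -0.27 ± 0.14 for Irf1 and 0.07 ± 0.89 for Dhx58 (the sensor LGP2). They were 0.42 ± 0.58 for Ifit1, 0.16 ± 0.22 for B2m (the light chain of class I), -0.25 ± 0.21 for Psmb10 (the third immunoproteasome subunit) and -0.14 ± 0.47 for Nlrc5 (the class I transactivator). The limma adjusted p of these genes was 0.38 or above. The class I heavy chains H2-K1 and H2-D1 came closer at day 12, at 0.38 ± 0.11 (limma adjusted p = 0.10) and 0.84 ± 0.22 (0.065), and in both all 4 KO arrays lay above all 4 control arrays. Another probe set of H2-D1 passed in the fit over every probe set, at 1.02 ± 0.23 (limma adjusted p = 0.048). In that fit the probe set that stands for H2-D1 did not pass (0.10), nor did its remaining probe sets (0.21 to 0.87). No probe set of H2-K1 passed there (0.061 to 0.95). All probe sets of both genes had positive log2 fold changes at day 12.

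The 2 class I heavy chains were higher at day 12 than at day 4 in both KO and control cells, and passed the test in KO cells. The fibroblast marker sum was also higher at day 12 in both, and its part in these differences was not tested. H2-K1 had 817, 697, 887 and 796 at day 12 in KO cells, against 399, 389, 431 and 365 at day 4, a log2 difference of 1.01 ± 0.11 (limma adjusted p = 6.2e-04). H2-D1 had 888, 958, 838 and 911 at day 12 in KO cells, against 279, 171, 268 and 231 at day 4, a log2 difference of 1.94 ± 0.22 (limma adjusted p = 6.9e-04). In control cells H2-K1 had 650, 616, 628 and 554 at day 12, against 506, 421, 483 and 530 at day 4, a log2 difference of 0.34 ± 0.11 (limma adjusted p = 0.19). In control cells H2-D1 had 470, 719, 383 and 490 at day 12, against 368, 217, 269 and 326 at day 4, a log2 difference of 0.79 ± 0.22 (limma adjusted p = 0.12). Both KO calls held without any of the 16 arrays, and both probe sets are of a type that can bind transcripts of related class I genes. The difference of these day effects between KO and control cells was 0.67 ± 0.16 for H2-K1 (limma adjusted p = 0.82) and 1.15 ± 0.31 for H2-D1 (0.88), beside 0% of all entries past the threshold.

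Over the 102 genes, day 12 against day 4 had 5 higher and 3 lower in KO cells, beside 3.27% of all entries, and 0 higher and 3 lower in control cells, beside 0.995%. In KO cells the others higher were Cxcl10, an interferon-induced chemokine (1.99 ± 0.44, limma adjusted p = 0.029), Ifnar2, a chain of the type I interferon receptor (0.67 ± 0.15, 0.033), and Shisa5 (0.55 ± 0.12, 0.032). Zbp1, a sensor of Z-form nucleic acid (-0.89 ± 0.20, 0.029), Socs3 (-0.63 ± 0.10, 0.0059) and Tor3a (-0.61 ± 0.13, 0.030) were lower. Of these 6, the Socs3 call held without any of the 16 arrays and the other 5 held in 9 to 11 of 16 such fits. In control cells Parp14 (-0.88 ± 0.18, limma adjusted p = 0.039), Parp12 (-0.65 ± 0.14, 0.050) and Socs3 (-0.48 ± 0.10, 0.050) were lower, in 0 to 5 of 16 such fits. Xaf1, Psmb9 and Ddx58, whose KO and control arrays lay apart at day 12, did not pass for day in either group.

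Pou5f1 and Ptprc matched the ES cell label. On all 16 arrays Pou5f1, a defining pluripotency factor, lay between 7558 and 13405, and Ptprc, which marks leukocytes, did not exceed 37.9. Of 9 ES cell markers, 0 passed in KO against control at day 4. At day 12 Utf1 passed as lower, averaging 5400 in KO and 9493 in control cells. With same-numbered arrays paired, Sox2 (10022 against 12286) and Klf4 (2929 against 1925) passed as well. Zfp42 passed as lower in clone 15 than in clone 10 in control cells. Rybp, by probe set 1421111_at (shared with its pseudogene), was 85 to 125 in KO and 2047 to 3319 in control cells at day 4, and 109 to 256 in KO and 2749 to 3434 in control cells at day 12. The other Rybp probe set, 1428219_at, was higher in KO cells, at 4374 to 7612 against 255 to 2771 at day 4. The summed level of 12 feeder fibroblast markers, none at 0, was 4540 to 5769 in KO and 4139 to 4902 in control cells at day 12. At day 4 it was lower, at 2523 to 4376 in KO and 2616 to 3581 in control cells. Acta2 made up most of this sum at day 12, averaging 2917 in KO and 2456 in control cells. In both, Acta2 passed as higher at day 12 than at day 4. The summed level of 8 leukocyte markers, none at 0, was 1006 to 1477 in KO and 1530 to 2178 in control cells at day 12. Cd68 was lower (-0.89 ± 0.17, limma adjusted p = 0.015) and Fcer1g higher (2.66 ± 0.53, 0.017). Cd68 made up most of this sum, averaging 755 in KO and 1391 in control cells at day 12. The part of these markers in the day 12 differences of Xaf1, Psmb9, Ddx58, Ifit3, Socs1, Irf8 and Tor3a was not tested. Their part in the differences of H2-K1 and H2-D1 between the days was not tested either. The log2 ratio of 3' to 5' signal of the transferrin receptor, a sign of RNA quality, averaged 1.26 in KO and 1.06 in control cells at day 4, and 1.17 in KO and 1.19 in control cells at day 12. It was higher in KO cells in 4 of 4 pairs at day 4 and in 1 of 4 at day 12. For Gapdh this ratio was higher in KO cells in 2 of 4 pairs at each day, and for actin in 3 of 4. Actin averaged 0.50 in KO and 0.48 in control cells at day 4, and 0.52 and 0.45 at day 12.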

How the data were processed

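Per the labels' protocols, Trizol-extracted total RNA was turned into biotin-labelled cRNA for the arrays. Affymetrix Expression Console and RMA, without versions, are the tools in the submitters' processing notes. The design text speaks of a 430A 2.0 array, but the table has 45101 probe sets, those of a larger array. What the authors deposited is 1 intensity per probe set and array, linear, from 0.144 to 52570. Sorted, the values of the 16 arrays are equal to within 0.01%, with a median of 93.3, as quantile normalisation before deposit gives. The number of arrays limits the precision.

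Of the probe sets, 34945 had 1 gene symbol in the platform annotation, 932 several and 9160 none. The deposited intensities were log2-transformed without an offset. The brightest probe set on average stood for each of 18193 genes, and 3 probe sets with several symbols (1 for Isg15 and 2 for Rybp) were added, which gives 18196 entries. Differences were tested with limma 3.58.1 (R 4.3.3) over all 16 arrays, with group and clone as terms for KO and day, a mean for each clone and group for clone comparisons, and the replicate number within each day added for replicate comparisons. P-values were Benjamini-Hochberg adjusted over all entries and called under 0.05. The analysis was tested on simulated data. Values from other probe sets of a gene came from the same fit over every named probe set.

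The members and lists were chosen with earlier results of these data known. Named genes were all 9 members, list genes past the threshold (at most 6 a list and comparison) and 13 central genes named whatever their values, of which 1 is not reported here. RefSeq assembly GRCm38.p6 gave promoters and neighbours; no genome build is given for the table in the sources used here. The alternatives were a replicate block, each array left out, a floor at the 25th percentile (28.3), an offset of 16, a filter at the median, every probe set, the mean of probe sets, a trended robust fit and clone-by-group means. Over all entries, the residuals of same-numbered KO and control arrays correlated between -0.08 and 0.06, and the numbers were not taken to pair the arrays. Over the 10851 genes above the median intensity these residuals correlated at 0.13 to 0.61. The pairing is thus not settled, and counts with the replicate block are given at the end.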

Additional observations from a re-analysis of the deposited data

Results flagged for a closer look

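The values of 9 members in 4 groups were checked for an array far from the other 3 of its group (36 checks), and 4 stood apart. Chance alone gives about 1 in 20. Xaf1 was 224 in control cells of clone 15, replicate 1, at day 12, above the other 3 control arrays. Ifih1 was 2.40 in KO cells of clone 10, replicate 2, at day 4, below the other 3, and the gene is near the dim end of the scale. Irf7 was 26.5 in KO cells of clone 15, replicate 2, at day 4, and 14.7 in control cells of clone 15, replicate 2, at day 12, in each case below the other 3 arrays of its group. The pairs of those 2 Irf7 arrays gave -2.45 and 2.64, the lowest and highest log2 differences of Irf7.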

How the results depend on the processing

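Numbers of all entries called follow. The replicate block, which treats same-numbered arrays as paired, gave 178 for KO at day 4 (114 without it), 1477 for KO at day 12 (560), 487 for day in control cells (181) and 1088 for day in KO cells (595), with 2 members called at day 4 (Xaf1 and Psmb9, against 0) and 4 at day 12 (Ifit3 added to Xaf1, Psmb9 and Ddx58). Of the 102 pathway genes the block called 1 for KO at day 4 (Irf8, against 0), 11 for KO at day 12 (against 3, all kept, with Cgas, Myd88, Ifitm1, Oas1a, Bst2, Gbp2, Pml and H2-D1 added), 8 for day in control cells (3) and 12 for day in KO cells (8), and of the standard proteasome Psmb2 for KO at day 12. Over the 10851 genes above the median intensity, residuals of same-numbered arrays correlated at 0.13 to 0.61 in 8 of 8 pairs. In 8 of 8 the nearest control array had the same number, a hint from the data. In 0 of 8 was it the array of the same clone, day and number, with which the block pairs it. Raising low values gave 216, 909, 490 and 1094, with 2 for the KO difference between clones (0), 1762 for replicates at day 12 (658), 2 members at day 4 and 2 (Xaf1 and Tap1) between replicates at day 4. The median filter gave 485 and 1050 for day in control and KO cells, 1 between clones, 2596 for replicates at day 12 and 2 members at day 4. The mean of probe sets gave 88 and 355 for day, 1 between clones, 0 for replicates at day 12 and 1 member at day 12 (Psmb9). Every probe set gave 8417 for replicates at day 4 (4867). The trended robust fit gave 352 for day in control cells, 1 between clones and 2376 for replicates at day 12, and the offset gave 1 between clones. Clone-by-group means gave 302 for KO at day 12, 58 for day in control and 220 in KO cells.

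Without 1 array each, the counts were 66 to 111 for KO at day 4, 287 to 536 for KO at day 12, 94 to 167 for day in control cells, 239 to 593 for day in KO cells, 3 to 19 between clones in control cells (12), 0 to 1 for the KO difference between clones, 3472 to 4746 and 0 to 248 for replicates at days 4 and 12. Members called were 0 to 1 for KO at day 4, 1 to 3 for KO at day 12 and 1 to 2 for replicates at day 4. The cause of these changes was not tested. Of 420 member values under all alternatives, 72 were of called members and 0 of those changed sign, whereas 22 of the 348 others did or came to 0, for Tap1 and Psmb8 at both days, Ifit3 and Ifih1 at day 4 and Isg15 and Irf7 at day 12. Of all 420, 414 moved by less than 1 SD and 6 by more, those being Ifih1 (0.33) and Ifit3 (-1.09) at day 12 with low values raised, and with the mean of probe sets Xaf1 (0.14 and 0.78), Ddx58 at day 4 (-0.47) and Tap1 at day 12 (-0.62). Dim members, Ifih1 most, are limited by signal.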
